A study of Mus musculus with 14 samples.

Results

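Mir22hg, Neat1, Malat1, Gas5, Snhg1, Snhg5, Snhg12 and Snhg15 are long noncoding RNAs that freshly sorted mouse muscle stem cells carry at readable levels. They were followed here as 8 rows, matched by Ensembl identifier and symbol, of the 49671 gene rows in each of 2 count tables. They were chosen by name with their CPM and fold changes in both comparisons of these same libraries in view, so the values of the members are descriptions and carry no p-value.

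Satellite cells, the resident stem cells of skeletal muscle, were taken fresh from resting muscle (triceps, pectoral and hind limbs) of the C57BL/6J strain, with 1000 cells to a library. Cells bearing integrin B1 together with CXCR4 were sorted, leaving out those that stained for Sca1, Ter119, CD11b, CD31 or CD45. At 4 months of age, 4 libraries were labelled FosGFP+ and 4 FosGFP-, after a GFP reporter of Fos, a subunit of the transcription factor AP-1, and the series text gives 4 mice. At 6 months, 3 libraries were labelled FoscKO and 3 Control, and the text gives 3 mice and, for both arms, a FosGFP+ gate. The labels name no Cre driver, do not say which part of Fos is deleted and tie no library to a mouse, so p-values measure the spread between libraries, which may be partly technical.

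Long noncoding RNAs of this kind work in different ways. Neat1 is the scaffold of paraspeckles, nuclear bodies that hold RNA-binding proteins, and its long isoform is the one needed to build them. Malat1, encoded next to Neat1, gathers in nuclear speckles with splicing factors. Gas5 and the Snhg genes are hosts of small nucleolar RNAs (snoRNAs), which guide chemical modification of ribosomal RNA, and their spliced transcripts are known targets of nonsense-mediated decay. The transcripts of several such hosts begin with a run of pyrimidines, a mark shared with ribosomal protein mRNAs. Mir22hg is the host transcript of miR-22, a microRNA abundant in heart and skeletal muscle.

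The sequences that define Mir22hg as a host are shown first, because the count tables measure the host and not the microRNA. Mir22hg lies at chr11:75461539-75466676 on the plus strand of GRCm38, and the Mir22 hairpin sits in its middle exon at chr11:75463716-75463810. In the hairpin below, from RefSeq (GRCm38.p6), capitals mark the 2 mature arms, and in each mature sequence capitals mark the seed, bases 2 to 8.
Mir22 hairpin: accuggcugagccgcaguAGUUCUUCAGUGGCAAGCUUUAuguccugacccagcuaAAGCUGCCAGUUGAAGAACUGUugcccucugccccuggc
miR-22-5p: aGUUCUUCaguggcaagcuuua
miR-22-3p: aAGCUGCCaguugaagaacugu
Of 1738 mature miRNAs in the RefSeq table, 1 carries the seed of miR-22-3p, miR-22-3p itself. The Mir22 row held 0 counts in all 14 libraries. Reads there may be set aside as ambiguous, since the hairpin lies within a host exon. A mature microRNA is also too short for this library kit, so nothing here measures miR-22. The 3 exons of Mir22hg span 1924 bases, of which 206 also belong to Tlcd2, a protein-coding gene on the same strand.

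The snoRNA hosts are small genes crowded with guides. Gas5 (chr1:161034422-161038539, plus strand) holds 10 annotated snoRNA genes, Snhg1 (chr19:8723475-8726443, plus strand) holds 8, Snhg12 (chr4:132308623-132311024, plus strand) 5, Snhg5 (chr9:88521050-88522929, minus strand) 2 and Snhg15 (chr11:6525591-6528760, minus strand) 1. Snhg12 (Snora44, Snora61 and Snora16a, beside Snord99) and Snhg15 (Snora9) carry guides of the H/ACA class, which direct pseudouridine formation. Snhg5 carries Snord50a and Snord50b, guides of the C/D class, which direct ribose methylation. All of these guides fall within an exon of at least 1 annotated host transcript, and 20 of 25 Gas5 transcripts and 14 of 18 Snhg1 transcripts are annotated as retaining an intron. Bases shared with other genes made up 17.8% of the exonic length of Gas5, 20.9% of Snhg1, 19.6% of Snhg12, 8.32% of Snhg5 and 9.79% of Snhg15. A counter may set reads there aside as ambiguous. The snoRNA rows held 0 counts apart from 1 of the 2 Snora16a rows, with 1 count in each dataset. Because these genes lie within host exons, the counting alone could empty their rows, which therefore do not measure the snoRNAs. The values below are those of the host rows.

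**Figure D1:**
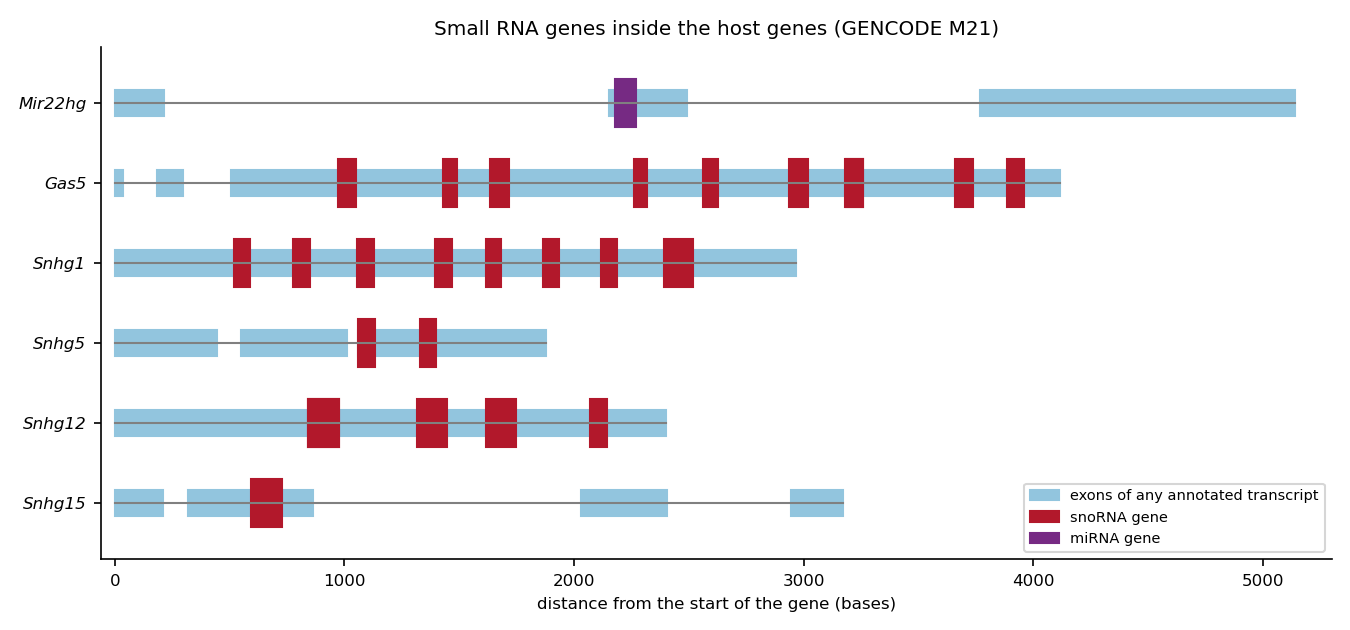
Exons (pale blue, any annotated transcript), snoRNA genes (red) and the Mir22 gene (purple) of the 6 host genes, drawn 5′ to 3′ against the distance in bases from the start of each gene. Overlapping snoRNA entries are drawn over each other, so Gas5 shows fewer than its 10 entries and Snhg12 fewer than its 5.

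Start sites of the snoRNA hosts are printed because the pyrimidine start is the sequence feature these RNAs are known for. Each line gives 60 bases around a RefSeq start site (GRCm38.p6), with 25 bases before it and the start base 26th, and capitals mark a run of at least 5 pyrimidines that opens with C and begins within 10 bases of the start.
Gas5, chr1:161035141-161035200, plus strand: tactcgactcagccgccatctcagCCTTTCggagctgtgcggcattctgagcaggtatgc
Snhg12, chr4:132308653-132308712, plus strand: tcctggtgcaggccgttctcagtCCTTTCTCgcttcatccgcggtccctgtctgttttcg
Snhg5, chr9:88522863-88522922, minus strand: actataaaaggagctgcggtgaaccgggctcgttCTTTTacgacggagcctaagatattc
Snhg1, chr19:8723462-8723521, plus strand: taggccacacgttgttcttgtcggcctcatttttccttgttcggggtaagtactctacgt
Snhg15, chr11:6528726-6528785, minus strand: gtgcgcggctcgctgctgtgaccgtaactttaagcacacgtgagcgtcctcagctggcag
Gas5 and Snhg12 had runs of 6 and 8 bases that began 1 and 2 bases before the start shown. RefSeq has a second Gas5 start, at position 161034601 of chromosome 1, whose window held no such run. Snhg5 had a run of 5 that began 9 bases after its start, and the windows of Snhg1 and Snhg15 held none by this rule. The Snhg1 window does hold a pyrimidine stretch after the start, which opens with T and so was not marked. A run that meets the rule occurred in 30.7% of 32851 promoter windows of 300 bases, so it is common.

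The promoter windows of 7 of the 8 genes (all but Neat1) were also searched, on both strands, for letters bound by factors of the AP-1 and CREB families. The AP-1 letters TGANTCA were in none of the members' windows and in 7.81% of all windows. The cyclic AMP response element TGACGTCA, in 1.79% of all windows, was in those of Gas5 and Snhg15, 46 and 88 bases before the starts shown above, and is in capitals here.
Gas5, chr1:161035104-161035143, plus strand: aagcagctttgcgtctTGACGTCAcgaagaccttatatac
Snhg15, chr11:6528825-6528864, minus strand: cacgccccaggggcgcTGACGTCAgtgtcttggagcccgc
The E-box CACGTG, in 7.15% of all windows, was in the Snhg15 window and overlaps neither element. These matches are letters in a window, and no binding was measured.

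The libraries differed in quality along with their labels. Gene counts ran from 3806776 to 5983711 in FosGFP+, 2652230 to 4067543 in FosGFP-, 4797954 to 10241655 in FoscKO and 5326686 to 6930696 in Control. The share of reads in genes was 17.02% to 23.2% in FosGFP+ and 10.3% to 14.1% in FosGFP-. An even background, read off 1743 sensory receptor genes, amounted to 6.53% to 10.8% of gene counts in FosGFP+ and 13.2% to 19.8% in FosGFP-. FoscKO replicate 1 stood apart, with 30.2% of reads in genes and a count in 31483 genes against 36054 and 36804 in replicates 2 and 3. Fos mRNA went against the labels in the FosGFP libraries, at 4502 ± 1030 CPM in FosGFP+ and 10721 ± 2085 in FosGFP- (SD, n = 4). It was 4990 ± 2952 CPM in FoscKO against 4884 ± 172 in Control (SD, n = 3). In FoscKO, replicate 1 had 8357 CPM, above all Control libraries, and replicates 2 and 3 had 2847 and 3766, below all of them (4685 to 4992). The groups are therefore called by their labels throughout, and no direction below is read as an effect of Fos. Summed markers of satellite cells were 7950 to 11739 CPM in FosGFP+ and 4242 to 6650 CPM in FosGFP-, and 4 of the 10 were called higher in FosGFP+. Endothelial markers summed to 195 to 237 CPM in FosGFP+ and 238 to 349 in FosGFP-, with 1 of 10 called, lower in FosGFP+, and leukocyte markers to 49.8 to 86.8 and 71.4 to 135 CPM, with 0 of 9 called. Markers of fibro-adipogenic progenitors summed to 1840 to 2661 CPM in FosGFP+, 1111 to 2802 in FosGFP-, 2931 to 5594 in FoscKO and 3053 to 4237 in Control, with 1 of 8 called, lower in FosGFP+. Those of smooth muscle and pericytes summed to 186 to 327 CPM in FosGFP+ and 155 to 433 in FosGFP-, with 1 of 7 called, lower in FosGFP+, and to 402 to 1038 CPM in FoscKO and 223 to 518 in Control. Those of mature fibres summed to 515 to 1753 CPM in FoscKO and 1516 to 3280 in Control, and edgeR called no marker in that comparison. The part of these other cells in the differences below was not tested.

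The 8 RNAs together took 0.247% to 0.320% of gene counts in FosGFP+, 0.209% to 0.322% in FosGFP-, 0.230% to 0.296% in FoscKO and 0.201% to 0.253% in Control. Exonic length joins the exons of all annotated transcripts of a gene. It was 3760 bases for Gas5, whose longest transcript has 2556, and 1359 for Snhg15, whose longest has 675. The order of the 8 within a group therefore depends on the annotation. Per kb of exonic length, Malat1 was the first of the 8 in every group, at 241 ± 30.8 CPM per kb in FosGFP+, 199.7 ± 37.3 in FosGFP-, 167 ± 46.6 in FoscKO and 144 ± 40.8 in Control. Its libraries lay apart from those of the next RNA in the first 3 groups and overlapped Mir22hg in Control. Snhg12 was last in every group, at 5.20 to 6.77 CPM per kb on average, and lay apart from the RNA above it in each.

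The order between those ends differed from group to group. Mir22hg was the second in FosGFP+, at 152 ± 27.1 CPM per kb with libraries that overlapped those of Gas5, and the fifth in FosGFP-, at 31.7 ± 5.83, where it overlapped Snhg15. In Control it was again the second, at 107 ± 15.2 CPM per kb, overlapping Gas5, and in FoscKO the third, at 69.8 ± 6.26, overlapping both Gas5 and Snhg15. Neat1 was the seventh in Control, at 16.8 ± 2.89 CPM per kb, with its libraries below those of Snhg1 and above those of Snhg12. In FoscKO it was the fifth, at 43.6 ± 10.6 CPM per kb, overlapping Snhg15 and Snhg5. Gas5 per kb was 113 ± 13.3 in FosGFP+, 74.3 ± 4.22 in FosGFP-, 89.7 ± 26.4 in FoscKO and 101 ± 1.61 in Control (SD, n = 4, 4, 3 and 3). Gene-level counts cannot separate the Neat1 isoforms, whose annotated lengths run from 711 to 20771 bases. A level per kb of the full length therefore understates a short isoform. Neat1 values are thus not a measure of the long isoform. How well the cDNA chemistry captured each Neat1 isoform, or Malat1, was not tested.

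**Figure D2:**
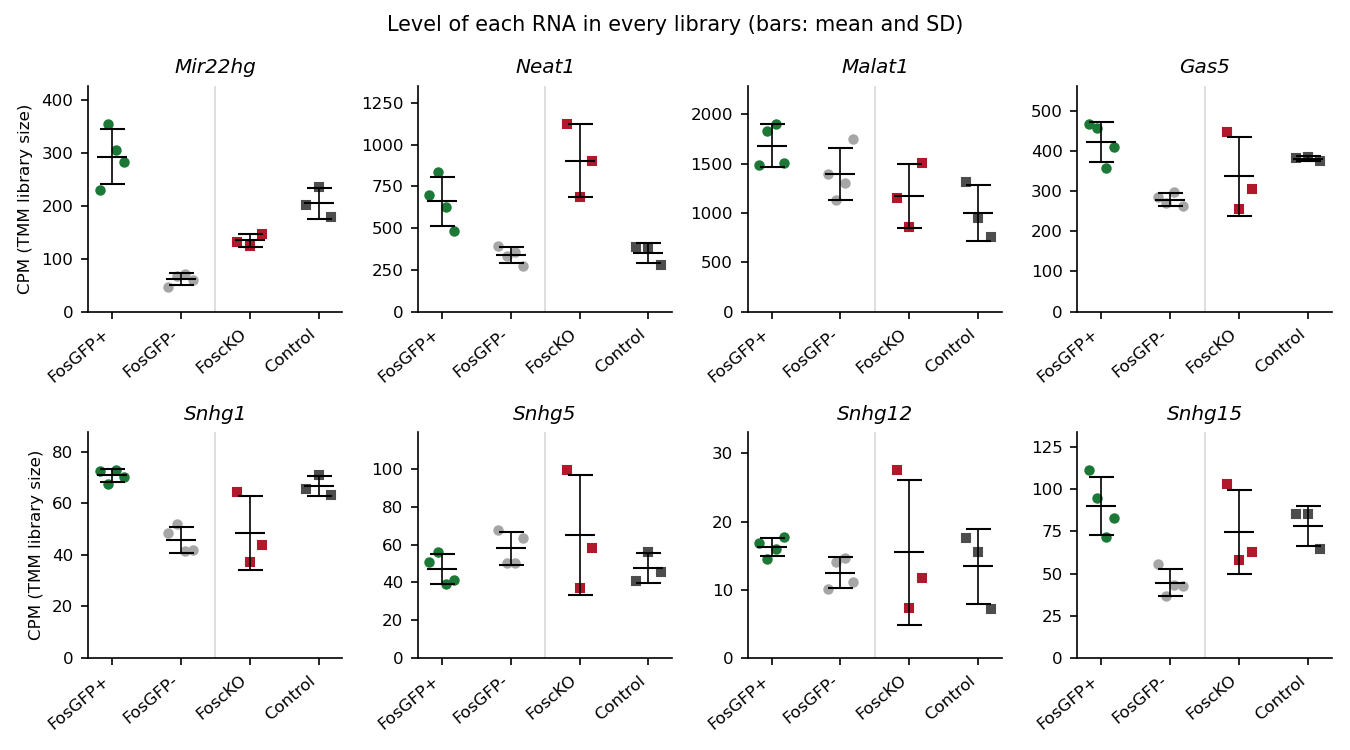
CPM of each RNA (y axis, linear, from 0; counts scaled to the TMM library size) in every library of the 4 groups, with the mean and SD as bars. The 2 datasets, divided by a grey line, were scaled apart; Mir22hg lies between 230 and 355 CPM in FosGFP+ and below 72 CPM in FosGFP-.

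The first comparison sets the libraries labelled FosGFP+ against those labelled FosGFP-. Mir22hg showed the widest separation of the 8. Its level in replicates 1 to 4 was 229, 355, 305 and 282 CPM in FosGFP+ and 45.9, 66.8, 71.7 and 59.5 CPM in FosGFP-. Every FosGFP+ library was above every FosGFP- library, and the means, 293 ± 52.1 and 61.0 ± 11.2 CPM (SD, n = 4), stood 4.80-fold apart. The fitted log2 fold change was 2.27 ± 0.20 (SE), and it stayed between 1.67 and 2.36 under the 8 other settings tried. In sorted bulk cells, a smaller share of cells with an RNA and less RNA per cell cannot be told apart.

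Neat1, counted over all its isoforms, was also apart in the FosGFP libraries. FosGFP+ replicates had 697, 835, 629 and 480 CPM, and FosGFP- replicates had 393, 335, 356 and 275 CPM. The lowest FosGFP+ library was above the highest FosGFP- library, with a log2 fold change of 0.96 ± 0.19 (SE). Malat1, its neighbour in the genome, had 1490, 1830, 1905 and 1507 CPM in FosGFP+ and 1392, 1131, 1305 and 1750 CPM in FosGFP-. Those groups overlapped, since FosGFP- replicate 4 exceeded FosGFP+ replicates 1 and 4, and the log2 fold change was 0.27 ± 0.18 (SE; 95% interval -0.08 to 0.62).

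Among the snoRNA hosts, Gas5, Snhg1 and Snhg15 were higher in FosGFP+ without overlap, and Snhg5 and Snhg12 overlapped. Gas5, the growth-arrest host, had 469, 457, 359 and 410 CPM in FosGFP+ and 286, 271, 298 and 263 CPM in FosGFP-, a log2 fold change of 0.60 ± 0.16 (SE). Snhg15 had 111, 94.7, 71.5 and 83.1 CPM against 56.0, 36.9, 43.2 and 42.5 CPM, a log2 fold change of 1.01 ± 0.21 (SE). Snhg1 was even across FosGFP+, at 72.5, 67.7, 72.9 and 70.3 CPM, and stood at 48.3, 51.9, 41.5 and 41.9 CPM in FosGFP-. These 3 hosts therefore kept a gap between the groups at TMM scaling, although the ranges differ in width.

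Snhg5 leaned the other way. It had 51.0, 56.0, 39.4 and 41.2 CPM in FosGFP+ and 67.6, 50.5, 50.5 and 63.3 CPM in FosGFP-, with overlap and a log2 fold change of -0.31 ± 0.20 (SE; 95% interval -0.71 to 0.09). Snhg12 had 14.6 to 17.7 CPM in FosGFP+ and 10.1 to 14.7 CPM in FosGFP-, overlapping by a narrow margin. The even background would make up 10.7% to 26.7% of the Snhg12 counts in these 8 libraries and at most 9.35% of those of any other member, the largest being Neat1.

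In the fit over all genes (edgeR, Benjamini-Hochberg adjusted p under 0.05), 12.1% of 20698 genes were called, 10.3% higher in FosGFP+ and 1.85% lower. Of the 8 RNAs, 5 were called, all higher: Mir22hg, Neat1, Gas5, Snhg1 and Snhg15. The same 5 had non-overlapping libraries, as did 19.3% of all genes tested (12.9% higher in FosGFP+ and 6.45% lower). Nothing is read from that count, since these values helped to choose the group. The median log2 fold change was -0.18 over all genes, 0.57 over genes of at least 50 CPM and 0.61 over the 8 RNAs, so well-expressed genes as a whole sat on the same side. The authors' deposited table, with signs turned to the same direction, gives log2 fold changes of 2.27 ± 0.22 for Mir22hg, 1.01 ± 0.22 for Neat1, 0.68 ± 0.17 for Gas5 and 1.06 ± 0.22 for Snhg15 (SE). It lists 3422 genes, and Snhg1 is not among them.

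The direction of the smaller differences depended on the scaling. With total counts as library size, which moved all genes by -0.38 on the log2 scale, 3 of the 8 were called higher (Mir22hg, Neat1 and Snhg15) and 1 lower (Snhg5, -0.70). With TMM computed from genes of at least 50 CPM, a shift of -0.59, Mir22hg alone was called higher, at 1.67, and Snhg5 alone lower, at -0.92. Malat1 turned negative under both, at -0.13 and -0.34, Snhg12 under the second, at -0.20, and Gas5 and Snhg1 came to 0.01 and 0.04 under the second. After the even background was subtracted, Mir22hg, Neat1 and Snhg15 were called higher, at 2.08, 0.80 and 0.82. The call of Gas5 was lost without FosGFP+ replicate 2 or FosGFP- replicate 1 or 2, at 0.59 to 0.62, and that of Snhg1 without FosGFP+ replicate 4 or FosGFP- replicate 1, 3 or 4, at 0.59 to 0.66. The part that read quality, which moved with the labels, had in these differences was not tested.

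**Figure D3:**
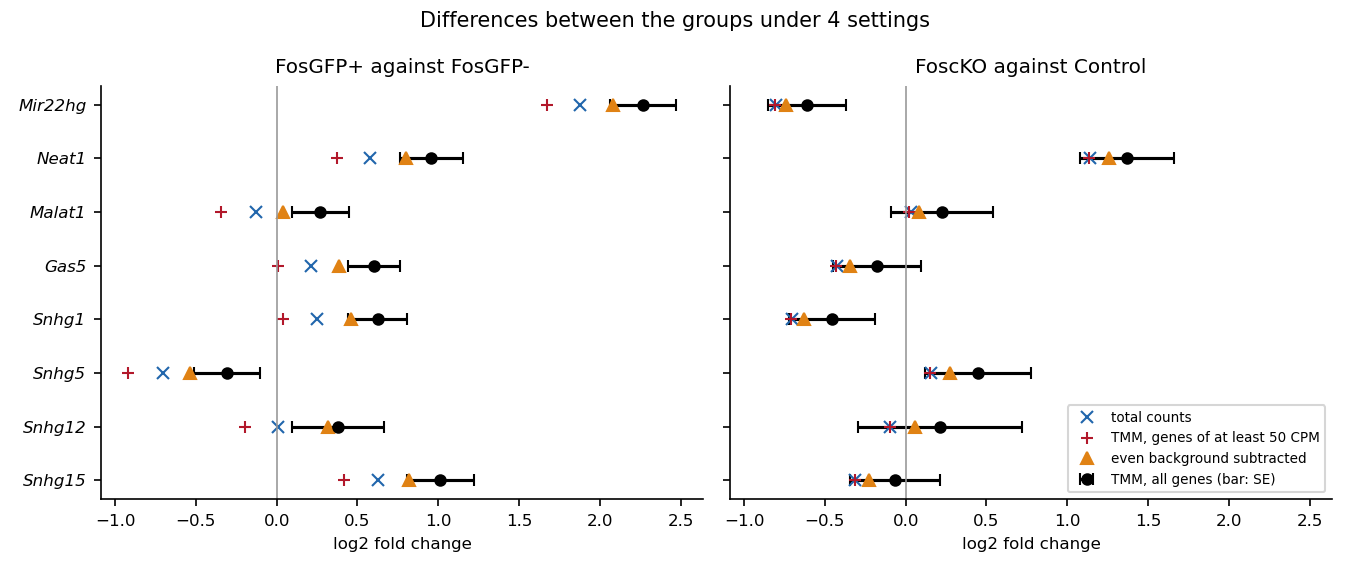
Log2 fold change of each RNA (x axis) in FosGFP+ against FosGFP- (left) and FoscKO against Control (right). Black points with SE bars use TMM over all genes; crosses, plus signs and triangles use library totals, TMM restricted to genes of at least 50 CPM, and counts less the even background. Mir22hg, Neat1, Gas5, Snhg1 and Snhg15 stay right of 0 on the left panel, Gas5 and Snhg1 barely so with TMM restricted to genes of at least 50 CPM. On the right panel Mir22hg and Neat1 lie on opposite sides of 0 under all 4.

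The second comparison sets the libraries labelled FoscKO against those labelled Control. Neat1 was higher and Mir22hg lower in the libraries labelled FoscKO, each without overlap. Neat1 had 1127, 685 and 904 CPM in FoscKO and 389, 380 and 281 CPM in Control, means 2.59-fold apart. All FoscKO libraries lay above all Control libraries, with a log2 fold change of 1.37 ± 0.29 (SE). Mir22hg had 132, 124 and 147 CPM in FoscKO and 201, 236 and 178 CPM in Control. Here every FoscKO library lay below every Control library, with a log2 fold change of -0.61 ± 0.24 (SE).

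Malat1 spread as widely within the groups as between them, at 1149, 855 and 1504 CPM in FoscKO and 1312, 943 and 751 CPM in Control (log2 fold change 0.22 ± 0.32, SE). Gas5 was even in Control, at 384, 386 and 375 CPM, and uneven in FoscKO, at 448, 257 and 306 CPM. Snhg1 had 64.4, 37.1 and 43.9 CPM in FoscKO and 65.6, 70.8 and 63.2 CPM in Control. In both hosts FoscKO replicate 1 was the high library and the other two lay below all Control libraries.

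FoscKO replicate 1 was also the high library for the remaining hosts. Snhg15 had 103, 58.1 and 62.8 CPM in FoscKO and 85.1, 85.3 and 64.3 CPM in Control. Snhg5 had 99.4, 36.9 and 58.4 CPM in FoscKO and 40.8, 56.3 and 45.8 CPM in Control. Snhg12 had 27.5, 7.4 and 11.7 CPM in FoscKO and 17.6, 15.5 and 7.3 CPM in Control, a coefficient of variation of 68.4% in FoscKO and 40.7% in Control. Log2 fold changes over all libraries were -0.18 ± 0.27 for Gas5, -0.46 ± 0.27 for Snhg1, 0.45 ± 0.33 for Snhg5, 0.21 ± 0.51 for Snhg12 and -0.07 ± 0.28 for Snhg15 (SE), intervals that all include 0.

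Left out, FoscKO replicate 1 changed several of these values. Neat1 was then 1.18 on the log2 scale and called, Mir22hg was -0.60 and not called, and Gas5, Snhg1 and Snhg15 moved to -0.44, -0.71 and -0.37. With 2 FoscKO libraries against 3 Control libraries, 5 of the 8 did not overlap: Neat1, which was higher in FoscKO, and Gas5, Snhg1, Snhg15 and Mir22hg, which were lower. In that split 19.7% of all genes tested did not overlap (9.53% higher and 10.2% lower), and nothing is read from the members' count. Snhg5 came to 0.01 and Snhg12 turned to -0.49. In the same setting 16 genes were called higher and 27 lower in all.

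With all libraries edgeR called 0 of 21885 genes (0%) at an adjusted p under 0.05, against 1208 at an unadjusted p under 0.05. DESeq2 called 59 higher and 34 lower, Neat1 among them. Of the 8 RNAs, 2 (Neat1 and Mir22hg) had non-overlapping libraries, as did 12.2% of all genes (5.75% higher in FoscKO and 6.47% lower). The median log2 fold change was 0.07 over the 8, -0.04 over all genes tested and 0.25 over genes of at least 50 CPM. Neat1 was called under 5 of the 8 other settings, at 1.14 to 1.42, and Mir22hg under none, at -0.81 to -0.58. The authors' deposited table gives Neat1 a log2 fold change of 1.27 ± 0.29 (SE), with the sign turned. It lists 69 genes, and Mir22hg is not among them.

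Ratios of counts within a library do not depend on how libraries are scaled, and they set the members against each other. Mir22hg counts over Neat1 counts were 0.329, 0.425, 0.484 and 0.588 in FosGFP+ and 0.117, 0.199, 0.201 and 0.216 in FosGFP-. They were 0.117, 0.180 and 0.163 in FoscKO and 0.515, 0.622 and 0.634 in Control. The ratio was thus higher in FosGFP+ than in FosGFP- and lower in FoscKO than in Control, with no overlap in either pair or without FoscKO replicate 1. The members were chosen with these differences in view. No share of gene pairs without overlap was computed for this or the ratios below, so the separations are descriptions only. Neat1 over Malat1 was 0.319 to 0.468 in FosGFP+ and 0.157 to 0.296 in FosGFP-, and 0.601 to 0.981 in FoscKO against 0.297 to 0.403 in Control. These neighbours on chromosome 19 (Malat1 at chr19:5795690-5802672, Neat1 at chr19:5824708-5845478, both on the minus strand) therefore differed unequally in both comparisons.

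The snoRNA hosts were also unequal among themselves. Snhg5 over Gas5 was 0.101 to 0.123 in FosGFP+ and 0.169 to 0.241 in FosGFP-, without overlap, and 0.144 to 0.222 in FoscKO against 0.106 to 0.146 in Control, which overlapped. Snhg15 over Gas5 was 0.199 to 0.238 in FosGFP+ and 0.136 to 0.196 in FosGFP-. Snhg1 over Gas5 overlapped in the FosGFP libraries, at 0.148 to 0.203 and 0.139 to 0.192. In FoscKO it was 0.143 to 0.144 in all 3 libraries, replicate 1 included, and in Control 0.169 to 0.184, without overlap. Thus Gas5 and Snhg1, the members with the most snoRNA genes, shared the high value of FoscKO replicate 1 in nearly equal measure.

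**Figure D4:**
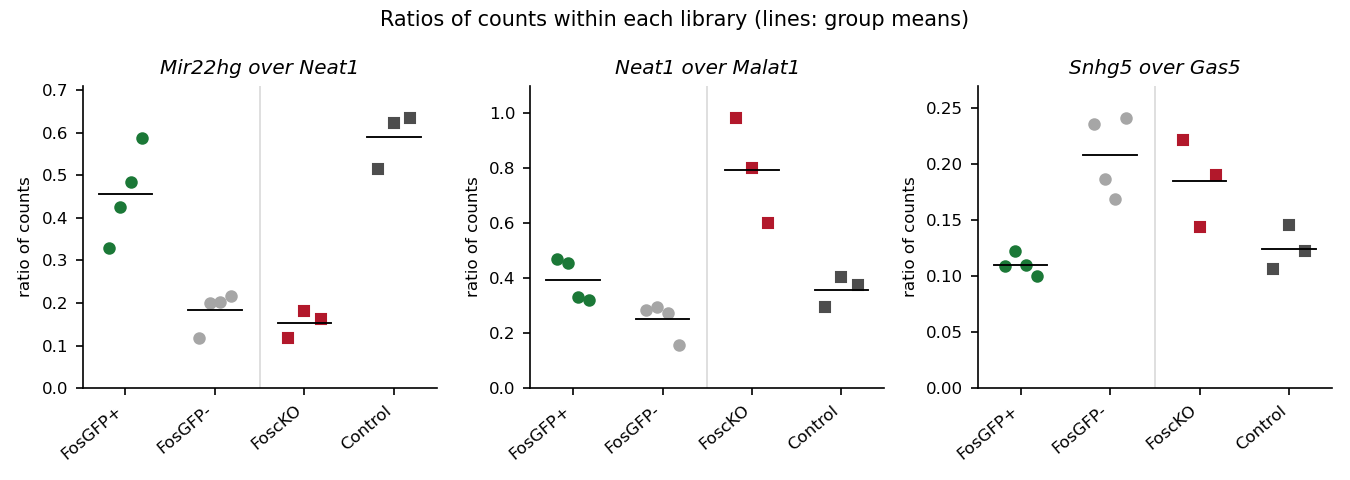
Ratio of the counts of 2 RNAs within each library (y axis, linear, no unit) in the 4 groups, with lines at the group means. Mir22hg over Neat1 is higher in FosGFP+ than in FosGFP- and lower in FoscKO than in Control, and Snhg5 over Gas5 separates the FosGFP groups and overlaps in the other 2.

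Genes of the pathways around these RNAs were read from the same fits, with the shares above as background. Of the other noncoding snoRNA hosts, 3 of 11 tested were called higher in FosGFP+ and 0 lower, with a median log2 fold change of 0.35. Snhg17 rose from 42.9 ± 9.57 to 117 ± 13.5 CPM (SD, n = 4; log2 fold change 1.44 ± 0.20, edgeR adjusted p = 0.000337). Epb41l4aos, a host at a lower level, rose by 1.16 ± 0.36 (adjusted p = 0.0457), a call lost under total counts at 0.77. Of 21 other long noncoding and microRNA host RNAs, 2 were called higher and 0 lower, with a median of -0.07. Mir17hg, host of the miR-17-92 cluster, rose from 11.8 ± 2.06 to 38.0 ± 5.94 CPM (1.69 ± 0.25, adjusted p = 0.000473). Tug1 rose by 0.71 ± 0.20 (adjusted p = 0.0267) and was not called under total counts, at 0.33.

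Proteins that gather with Neat1 and Malat1 in nuclear bodies came next. Of 14 paraspeckle proteins, 6 were called higher and 0 lower, against 10.3% of all genes called higher. Their middle log2 fold change, 0.61, lay near the 0.57 found for well-expressed genes (50 CPM or more), so no rise beyond that shift is read from it. Hnrnpk, an RNA-binding protein needed for paraspeckles, was 606 ± 56.9 CPM in FosGFP+ and 330 ± 21.3 in FosGFP- (0.87 ± 0.16, adjusted p = 0.00175), and Rbm14 was 59.9 ± 16.5 and 33.8 ± 2.30 CPM (0.83 ± 0.22, adjusted p = 0.0225). Of 16 nuclear speckle proteins, 8 were called higher, with a median of 0.62, likewise near 0.57. Among the 8 were the splicing factors Srsf6 (1.01 ± 0.17, adjusted p = 0.00116) and Srsf1 (0.99 ± 0.24, adjusted p = 0.0127). With total counts, 1 paraspeckle and 5 speckle proteins were called higher, and with TMM from genes of at least 50 CPM 0 and 1, with 1 of each list lower.

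Partners of the snoRNA hosts and of the microRNA were read in the same way. The background was again 10.3% of all genes called higher and a median of 0.57 over genes of at least 50 CPM. Of 18 snoRNP proteins and assembly factors, 10 were called higher and 0 lower, with a median of 0.75. The decay and microRNA processing factors below had medians of 0.38 and 0.34. Nhp2 and Gar1, core proteins of the H/ACA particle, rose by 1.78 ± 0.18 (42.4 ± 6.92 to 146 ± 3.76 CPM, adjusted p = 8.15e-05) and 1.45 ± 0.24 (23.0 ± 6.51 to 62.8 ± 11.0 CPM, adjusted p = 0.00103). Of the 18 genes, 7 were called higher under total counts and 5 under TMM from genes of at least 50 CPM, with 0 lower under each. Of 16 decay factors, 5 were called higher, led by Upf1, the central helicase of nonsense-mediated decay, at 1.49 ± 0.29 (adjusted p = 0.0028), and by Smg8 at 1.15 ± 0.22. With TMM from genes of at least 50 CPM, 1 decay factor was higher and 3 were lower. Of 12 microRNA processing factors, 2 were called higher, the Argonaute gene Ago2 (0.83 ± 0.20, adjusted p = 0.0114) and the export factor Xpo5 (0.66 ± 0.21, adjusted p = 0.049), both lost under total counts. Leaving out 1 library also ended the call of Xpo5 (7 of the 8 libraries, all but FosGFP+ replicate 4, at 0.60 to 0.76), of Epb41l4aos (6 libraries, all but replicate 3 of either group, at 1.07 to 1.24), of Rbm14 (FosGFP+ replicate 2 or 4 or FosGFP- replicate 1, at 0.67 to 0.84) and of Tug1 (replicate 2 of either group, at 0.63 and 0.75).

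In FoscKO against Control, edgeR called 0 genes of all 7 lists, and 0 under each other setting and with each library left out. List medians lay between -0.00 and 0.22. Without FoscKO replicate 1 they lay between -0.25 and 0.13, and those of the other snoRNA hosts and of the snoRNP genes went from 0.07 to -0.25 and from -0.00 to -0.20. Mir17hg was 18.8 ± 4.27 CPM in FoscKO and 32.1 ± 3.79 in Control (SD, n = 3; log2 fold change -0.77 ± 0.31, edgeR adjusted p = 0.842), below all Control libraries as Mir22hg was. H19, an imprinted RNA, was 18.1 ± 12.2 and 5.41 ± 2.96 CPM (1.74 ± 0.57, adjusted p = 0.705). The paraspeckle genes with the smallest p were Cpsf6, a cleavage factor subunit (0.53 ± 0.23, adjusted p = 0.885), and Pspc1 (0.50 ± 0.32, adjusted p = 0.914). The libraries of Cpsf6 did not overlap, as was so for 12.2% of all genes. Log2 fold changes were above 0 for 11 of 14 paraspeckle genes, 11 of 16 speckle genes and 13 of 16 decay factors. They were above 0 for 14 of 21 other long noncoding and microRNA host RNAs and 7 of 12 other snoRNA hosts. For microRNA processing factors it was 7 of 12, and for snoRNP genes 9 of 18. The share of all genes above 0 was not computed, so nothing is read from these counts. The decay median was 0.10, and 0.04 without FoscKO replicate 1. The paraspeckle median was 0.21, against 0.25 over genes of at least 50 CPM, and 0.03 without FoscKO replicate 1.

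**Figure D5:**
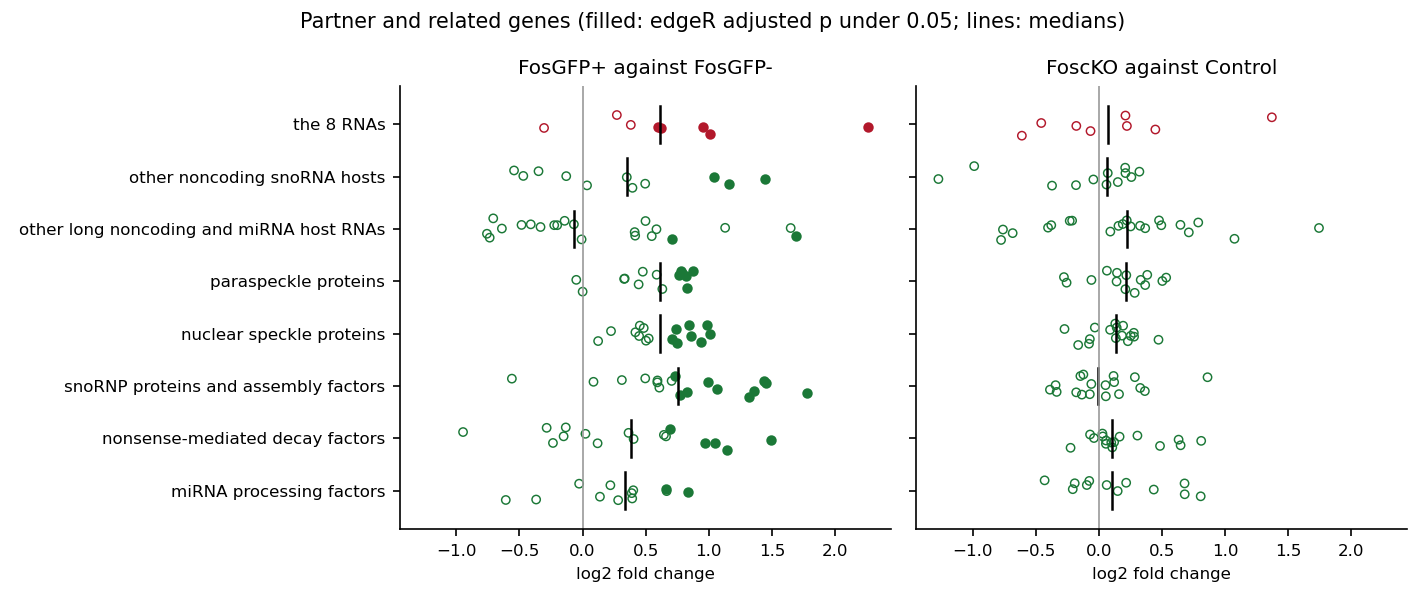
Log2 fold change (x axis) of each tested gene of the 8 RNAs (red) and of 7 lists of related genes (green) in the 2 comparisons, with filled circles for an edgeR adjusted p under 0.05 and a black line at each median. In FosGFP+ against FosGFP- 10 of 18 snoRNP genes are filled and higher; in FoscKO against Control no circle is filled.

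Genes whose level followed each RNA most closely were ranked over the 14 libraries by the root mean square difference of log2 CPM, each gene centred within its dataset, among 7010 genes of at least 20 CPM. Pdp1, at a difference of 0.20, and Spred1, at 0.22, were nearest to Mir22hg. Spred1, an inhibitor of Ras signalling, had 540 CPM in FosGFP+, 144 in FosGFP-, 199 in FoscKO and 293 in Control on average. Arl5b (0.23) and Cstf2t (0.27), a factor of mRNA 3′ processing, were nearest to Neat1, and Arl5b had 102, 63.5, 215 and 94.1 CPM in the same order of groups. Gas5 was followed most closely by Gm16286 (0.10) and Bmp2 (0.10), and Malat1 by the proteasome subunit gene Psma1 (0.17) and Cops5 (0.18). Snhg15 was followed by the splicing factor gene Srsf7 (0.16) and Stam (0.17), Snhg1 by Pou2f1 (0.16) and Polr1d (0.17), Snhg5 by Naxe (0.17) and Triobp (0.19), and Snhg12 by Sephs1 (0.21) and D8Ertd738e (0.21). All of these share the same libraries and their depth, so the ranking describes likeness and no more. The members' own root mean square about their dataset means was 0.90 for Mir22hg, 0.62 for Neat1, 0.30 for Gas5 and 0.29 for Malat1. Equal differences therefore do not mean equal likeness from member to member.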

How the data were processed

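Per the labels' protocols, cDNA was made with SMART-Seq v4, a chemistry that loses strand, and libraries with Nextera XT for Illumina sequencing. The submitters' processing notes name the build GRCm38, limma, DESeq2 1.20.0, HTSeq 0.6.1 and STAR 2.5.0c. The authors deposited 2 tables of raw counts, with 5 HTSeq lines that name no gene and were left out of library sizes. They also deposited tables of their own comparisons with log2 fold changes and p-values. Their 14 further per-library columns were not used. Symbols and exonic lengths came from GENCODE M21, in which 49326 of 49671 identifiers matched. Sequences came from RefSeq.

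Each table was fitted apart with edgeR 4.0.16 in R 4.3.3 (filterByExpr, TMM, robust quasi-likelihood F-test, two-sided, no covariate, Benjamini-Hochberg over all genes, called under 0.05). Levels are CPM of the TMM library size. Replicates of a group differed by more than sampling noise. On simulated counts, the first comparison recovered 54 of 200 genes set to change 2-fold and 177 of 200 set to change 4-fold (20698 genes), and the second 20 and 158 (21885 genes). These counts were negative binomial at the trended dispersion, and the changed genes had at least 5 CPM. No outlying library and no background that differs between groups was simulated, so recovery in the real libraries may differ. Alternatives were size factors of DESeq2, library totals, TMM restricted to genes of at least 50 CPM, no filter, limma-voom (limma 3.58.1), DESeq2 1.42.0 as the test, a block for replicate number, an even background subtracted, and each library left out. The background was the count per exonic kb of 1743 receptor genes times a gene's exonic length.

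The members and lists were chosen with earlier results of these data known. Besides the members and Fos, the rule names at most 2 called genes per direction and list of at least 5 CPM, or the 2 with the smallest p where none is called, and the 2 genes most like each member. Genes in the text are part of those.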

Additional observations from a re-analysis of the deposited data

How the results depend on the processing

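In FosGFP+ against FosGFP-, the genes called higher and lower were 1029 and 2087 with total counts, 712 and 5307 with TMM from genes of at least 50 CPM and 1409 and 236 with the even background subtracted, against 2125 and 383 as reported, and DESeq2 called 648 lower. With 1 library left out they ran from 1689 to 2202 higher and from 183 to 364 lower. In FoscKO against Control, where edgeR called 0, the genes called higher and lower were 12 and 34 with total counts, 11 and 33 with TMM from genes of at least 50 CPM, 85 and 46 without the filter, 4 and 6 with limma-voom, 59 and 34 with DESeq2, 3 and 14 with the background subtracted, and 0 to 16 and 0 to 27 with 1 library left out.

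The replicate numbers were not taken as pairs: deviations of same-numbered libraries correlated at -0.01 to 0.03 in the first dataset and -0.05 to 0.22 in the second, and FosGFP+ replicate 1 correlated better with FosGFP- replicate 2 than with replicate 1. With the replicate block, 2002 genes were called higher and 278 lower in the first comparison, without Snhg1 (0.63), and 23 and 20 in the second, with Neat1 (1.36).

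Of the log2 fold changes of the 8 RNAs, 12 values changed sign. In the FosGFP comparison these were Malat1 with total counts (-0.13) and with TMM from genes of at least 50 CPM (-0.34), and Snhg12 with the latter (-0.20). In the FoscKO comparison Snhg12 came to -0.10 with each of these settings and was below 0 without FoscKO replicate 1 or Control replicate 3. With 1 library left out the range was -0.49 to 0.56 for Snhg12, -0.44 to 0.0029 for Gas5 (above 0 without FoscKO replicate 2) and -0.37 to 0.10 for Snhg15 (above 0 without FoscKO replicate 2 or 3 or Control replicate 1 or 2). The cause was not tested. Mir22hg kept its direction in both comparisons, and its call in the first, in every setting run.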
